A study of Mus musculus with 15 samples.

Results

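*Yam1*, *Gm26917*, *Malat1*, *Neat1* and *Gas5* are 5 abundant noncoding RNAs that together took 2.58% to 17.3% of the summed expression of a library made from leukemic mouse spleens, with a median of 5.11% over 15 libraries. They were found by their gene symbols among 17029 genes listed for the series, and all 5 were present in both deposited tables. They were picked because their levels in these libraries were high, so levels and ranks are given below as a description without a test. Every mouse had a C57BL/6 background and carried the Eμ-TCL1 transgene, in which an immunoglobulin heavy chain enhancer drives the human oncogene TCL1 and B-cell leukemia develops. The Eμ-TCL1;p53R172H/+ mice were in addition heterozygous for a missense hot-spot mutation of *Trp53*. Cells were taken by mechanical disruption from tumor burdened spleens, with no sort given in the sources used here, and cultured for 24 h with the vehicle DMSO or with 5 μM ibrutinib, an inhibitor of Bruton's tyrosine kinase. The DMSO table held 3 Eμ-TCL1 libraries (replicates 2, 3 and 4) and 5 Eμ-TCL1;p53R172H/+ libraries (replicates 1 to 5), and the ibrutinib table held 3 Eμ-TCL1 libraries (replicates 1, 3 and 4) and 4 Eμ-TCL1;p53R172H/+ libraries (replicates 1, 3, 4 and 5). The age of the mice was not given in the sources used here, and nothing there says which libraries of a group came from separate mice, so that p-values measure the spread between these libraries. The comparison addressed is the effect of the *Trp53* mutation within each culture condition.

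Long noncoding RNAs act as transcripts and not through a protein. *Malat1* is retained in nuclear speckles, where splicing factors are stored, and *Neat1* is the scaffold of paraspeckles, nuclear bodies that hold RNA-binding proteins. *Gas5* is a spliced host gene whose introns give rise to small nucleolar RNAs and whose exonic RNA is degraded by nonsense-mediated decay when translation is active. *Gm26917* and *Yam1* (also called *Gm42418*) lie in a block of ribosomal DNA sequence, the kind of sequence that RNA polymerase I transcribes into the precursor of ribosomal RNA (rRNA).

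The positions are those of GENCODE M21 on GRCm38, the build of the tables. *Gm26917* (ENSMUSG00000097971) is a single-exon transcript of 3329 bases at chr17:39843013-39846341 on the plus strand. The *Yam1* row (ENSMUSG00000098178) is a single-exon transcript of 1831 bases at chr17:39846958-39848788 on the plus strand, and 616 bases separate it from *Gm26917*. Between and across them GENCODE lists an rRNA transcript of 1849 bases at chr17:39846353-39848201, which starts 11 bases after the end of *Gm26917* and is drawn on the minus strand. RefSeq has the rRNA pseudogene *Rn18s-rs5* there, with *Gm42418* as a synonym. Of the 1831 bases of the *Yam1* row, 1244 (67.9%) lie inside the rRNA transcript and are identical to its plus strand, and the other 587 follow it. The 3 stretches below show this on the plus strand, 5′ to 3′, because the results on both RNAs turn on it, with the bases that belong to the rRNA transcript in capitals: the last 60 bases of *Gm26917* (chr17:39846282-39846341), the first 60 bases of the rRNA span (chr17:39846353-39846412), and 120 bases of the *Yam1* row across its base 1244 (chr17:39848142-39848261).
Gm26917: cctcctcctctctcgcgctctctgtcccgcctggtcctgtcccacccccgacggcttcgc
rRNA span: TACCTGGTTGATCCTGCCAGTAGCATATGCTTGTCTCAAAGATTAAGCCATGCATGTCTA
Yam1 row: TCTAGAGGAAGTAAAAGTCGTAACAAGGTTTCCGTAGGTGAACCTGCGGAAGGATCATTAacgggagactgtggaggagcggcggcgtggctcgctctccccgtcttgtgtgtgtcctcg
The capitals start and end as the small-subunit rRNA does. Ribosomal DNA exists in many near-identical copies, and how reads with several matches were counted is not given in the sources used here, so the values of both rows are uncertain in that respect.

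*Malat1* (ENSMUSG00000092341, chr19:5795690-5802672) and *Neat1* (ENSMUSG00000092274, chr19:5824708-5845478) both lie on the minus strand, 22035 bases apart. Both are known to be cut by RNase P at a conserved stretch, which leaves an A-rich end in place of a poly(A) tail. The stretch is shown because both RNAs have it. Only the end of the long *Neat1* transcript was searched for in *Malat1*. Other bases that these 2 RNAs share in the windows below are left in lower case. The last 11 bases of the long *Neat1* transcript (20771 bases) are also in *Malat1*, 292 bases before the end of the annotated transcript, and are in capitals below. The short *Neat1* transcript (3004 bases) ends elsewhere, and its AATAAA poly(A) signal is in capitals. The windows are chr19:5795958-5796041 for *Malat1*, chr19:5824708-5824767 for the long form and chr19:5842307-5842366 for the short form, each read 5′ to 3′ on the minus strand.
Malat1: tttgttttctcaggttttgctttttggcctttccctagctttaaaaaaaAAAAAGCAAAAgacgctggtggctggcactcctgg
Neat1 long form: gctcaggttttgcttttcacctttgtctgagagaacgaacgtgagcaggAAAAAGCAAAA
Neat1 short form: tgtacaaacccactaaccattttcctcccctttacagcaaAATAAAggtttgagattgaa
The *Neat1* row sums both forms, which cannot be told apart in a gene-level table.

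*Gas5* (ENSMUSG00000053332, chr1:161034422-161038539, plus strand) has 3760 bases of merged exons and overlaps *Zbtb37* on the other strand. Whether reads were counted by strand is not given in the sources used here. Its mature transcript of 346 bases starts at chr1:161035166-161035189 with a run of 5 pyrimidines, in capitals, the kind of start that ties an RNA to the translation machinery.
Gas5: CTTTCggagctgtgcggcattctg

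The libraries differed in more than genotype. The tables hold CPM (read counts scaled to a common library size) after the authors' scaling to effective library sizes, set separately for each table. The read depth is unknown, so precision comes from the spread between replicates and, in limma, also from a prior spread taken over all genes. Summed over 10 B-cell genes, the markers reached 1456 to 6536 in 9 libraries and 70.2 to 612 in the other 6 (Eμ-TCL1;p53R172H/+ replicates 1 and 2 in DMSO and 1 and 3 in ibrutinib, Eμ-TCL1 replicate 2 in DMSO and 1 in ibrutinib), and none of the 10 was at 0 in any library. Myeloid markers (9 of 10 found) summed to 29228 in Eμ-TCL1 replicate 2 in DMSO and 20785 in Eμ-TCL1 replicate 1 in ibrutinib against 24.5 to 1161 in the other 13, and among those *Cd14* was at 0 in Eμ-TCL1;p53R172H/+ replicates 1 and 2 in DMSO and 1 in ibrutinib. Erythroid markers (7 of 10 found) summed to 4803 and 4806 in the same pair and 3.8 to 86.5 elsewhere. T-cell markers (10 of 10) reached sums of 2780 (replicate 1) and 3584 (replicate 2) in Eμ-TCL1;p53R172H/+ in DMSO, 1831 in its replicate 1 in ibrutinib, and 208 to 1171 elsewhere. All 6 Eμ-TCL1 libraries had *Xist* at 869 to 1992 and *Ddx3y* at 0, while 3 of 5 Eμ-TCL1;p53R172H/+ libraries in DMSO and 3 of 4 in ibrutinib had *Xist* at or below 1.2 and *Ddx3y* at 75.1 to 177, so sex and genotype were partly confounded. In the Eμ-TCL1;p53R172H/+ libraries numbered 3, *Xist* stood at 1491.3 (DMSO) and 1 (ibrutinib), so the libraries with that number differ in sex between the tables. With both sexes in each Eμ-TCL1;p53R172H/+ group, those libraries came from more than 1 mouse. *Trp53* lay at 22.7 to 67.0 in all libraries, which does not check a missense mutation.

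*Gm26917* was the most abundant RNA of the 1070 and 1072 rows typed as lncRNA in 14 of 15 libraries and took 1.28% to 8.91% of the column sum. In DMSO its value was 14688.4, 23089.7 and 14850.7 in the Eμ-TCL1 libraries. In the Eμ-TCL1;p53R172H/+ libraries it was 35537.6, 23738.8, 25019.9, 29482.2 and 67961.3. Each of the 5 Eμ-TCL1;p53R172H/+ libraries lay above all 3 Eμ-TCL1 libraries, although the gap between the nearest of them was small. Of 16470 genes in the table, 3.52% were separated in this way with the higher values in Eμ-TCL1;p53R172H/+, and 4.64% when replicate 2 of that genotype, the lowest of its 5, was left out. The means were 17543 ± 4804 (SD, n = 3) and 36348 ± 18266 (SD, n = 5), a difference that gave p = 0.0893 in a two-sided exact permutation test, where the smallest p possible was 0.0179, and an adjusted p of 1 over the 24 measures tested in this way. On the log2(value + 1) scale the difference was 0.97 ± 1.58 (SE) with an adjusted p of 0.839 in limma, and 0.97 ± 0.38 with an adjusted p of 0.557 when the prior spread was set without a trend on the mean level. As a share of the column sum the groups overlapped, at 1.796% ± 0.547 and 3.63% ± 1.82 (exact permutation p = 0.125). The *Gm26917* values of the Eμ-TCL1;p53R172H/+ replicates 3 and 5, in which *Xist* was present as in all Eμ-TCL1 libraries, were 25019.9 and 67961.3. In bulk RNA of this kind, fewer cells of a type and less RNA per cell cannot be told apart.

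In ibrutinib *Gm26917* did not separate the genotypes. It was 23132.4, 114904 and 17905.5 in Eμ-TCL1 and 33315.3, 29269.6, 60147.9 and 57545.4 in Eμ-TCL1;p53R172H/+. The highest value of the series, in Eμ-TCL1 replicate 3, stood above every Eμ-TCL1;p53R172H/+ library, and the other two Eμ-TCL1 values stood below all 4. The log2 difference was 0.24 ± 2.51 (SE; limma, adjusted p = 0.970) and moved to 1.07 without Eμ-TCL1 replicate 3, with an adjusted p of 0.863. That library had 33.0% of its column sum in the mitochondrial rRNAs *mt-Rnr1* and *mt-Rnr2*, and Eμ-TCL1;p53R172H/+ replicates 4 and 5 in ibrutinib had 39.0% and 38.7%, against a median of 7.91% over the 15 libraries. The 23.6% in Eμ-TCL1 replicate 2 in DMSO went with the lowest *Gm26917* value of the series. The part of mitochondrial rRNA in these values was not tested.

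*Yam1* was decided by 1 library. In DMSO it was 1532.3, 1833.3 and 952.5 in Eμ-TCL1 and 1448.7, 173268, 969.6, 1761 and 2637.9 in Eμ-TCL1;p53R172H/+. Replicate 2 of Eμ-TCL1;p53R172H/+ held 65.7 times the next highest value of the table, which made *Yam1* the top-ranked gene of that library with 13.9% of its column sum, against 0.0989% to 0.887% in the other 14. Apart from it the 2 groups in DMSO overlapped. The log2 difference was 1.55 ± 1.6025 (SE; limma, adjusted p = 0.736) with that library and 0.20 without it. In ibrutinib *Yam1* was 2331.3, 11443.8 and 1067.7 in Eμ-TCL1 and 1933.6, 2191.7, 4823.4 and 3127.7 in Eμ-TCL1;p53R172H/+, with a log2 difference of -0.11 ± 0.86 (SE; limma, adjusted p = 0.961). The highest and the lowest of these 7 values were both from Eμ-TCL1.

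**Figure D1:**
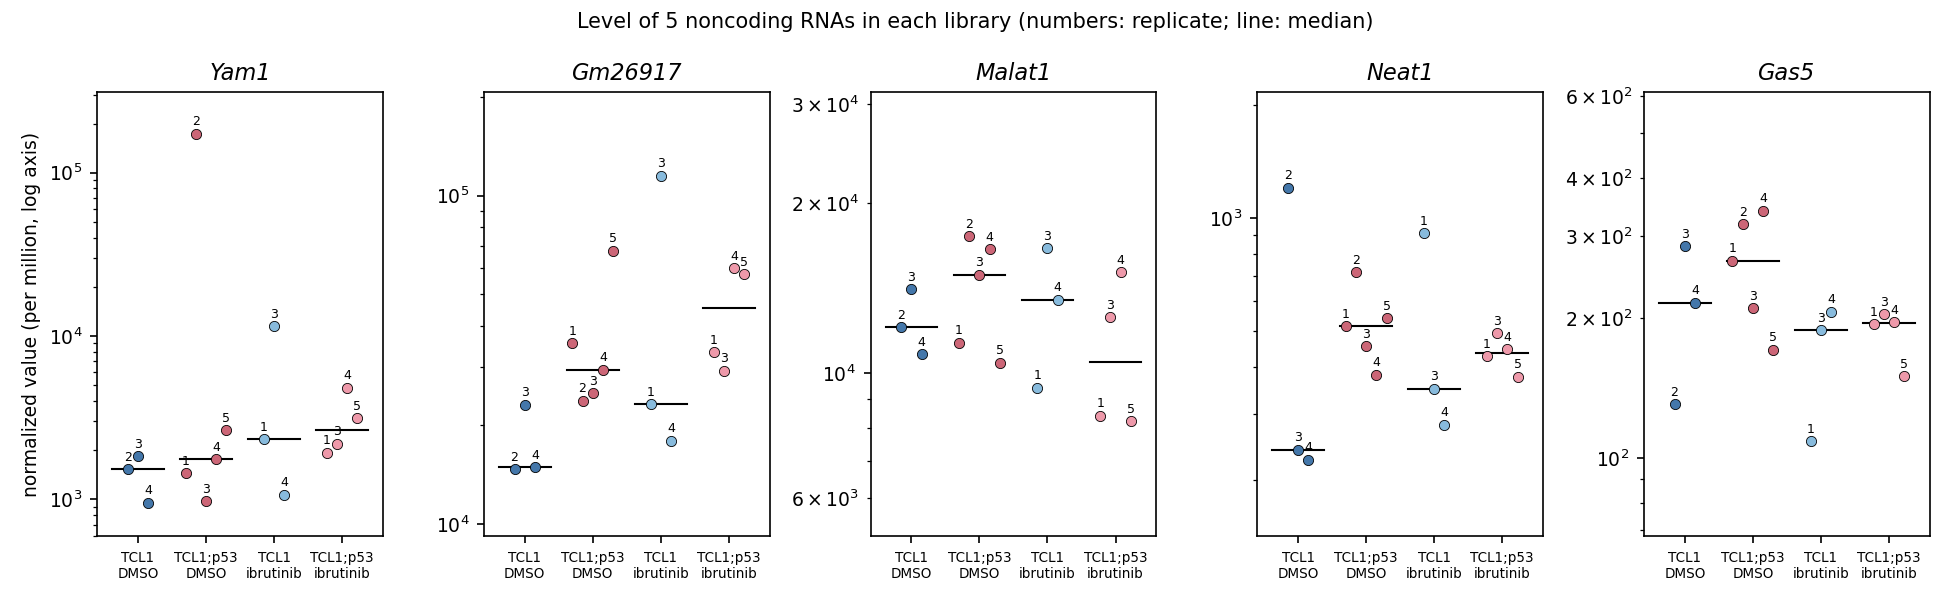
Normalized value (CPM, log axis) of each RNA in each of the 15 libraries, by genotype and culture, where TCL1 is Eμ-TCL1 and TCL1;p53 is Eμ-TCL1;p53R172H/+, numbers are replicates and lines are medians. *Yam1* reached 173268 in 1 library, *Gm26917* values of the genotypes did not overlap in DMSO, and *Neat1* was highest and *Gas5* lowest in the same 2 Eμ-TCL1 libraries, replicate 2 in DMSO and replicate 1 in ibrutinib.

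Other rows were high in the same Eμ-TCL1;p53R172H/+ library. With *Yam1* included, 11 rows had a value of at least 50 there that was over 5 times that of any other DMSO library, a rule set after the values were seen. Of the 11, 2 were typed as rRNA: *n-R5s193* stood at 1235.7 against at most 22.0 in the other DMSO libraries, and *n-R5s115* at 86.3 against at most 4.5. *Lars2*, a mitochondrial leucyl-tRNA synthetase, stood at 16381.6 against 34.1 to 137.4, and the antisense row *Gm15564* at 2534.8 against 2.4 to 20.0. *Gm26917*, the nearest neighbour of *Yam1*, was not among them: its value in that library was the lowest of the 5 Eμ-TCL1;p53R172H/+ libraries in DMSO. The same library had few B-cell and many T-cell transcripts, as did replicate 1, in which *Yam1* was 1448.7.

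The ratio of *Gm26917* to *Yam1* within a library does not depend on scaling. It ran from 9.59 to 25.8 in 14 libraries and was 0.137 in Eμ-TCL1;p53R172H/+ replicate 2 in DMSO. In DMSO it was 9.59, 12.6 and 15.6 in Eμ-TCL1 and 24.5, 25.8, 16.7 and 25.8 in Eμ-TCL1;p53R172H/+ replicates 1, 3, 4 and 5. Without replicate 2 the groups did not overlap, and the log2 ratio of *Yam1* to *Gm26917* differed by -0.89 (exact permutation p = 0.0571, not past 0.05), while with it the difference was 0.59 (p = 1, exact permutation). In ibrutinib the same difference was -0.35 (exact permutation p = 0.229), with *Gm26917* at 9.92, 10.04 and 16.8 times *Yam1* in Eμ-TCL1 and at 17.2, 13.4, 12.5 and 18.4 times in Eμ-TCL1;p53R172H/+.

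**Figure D2:**
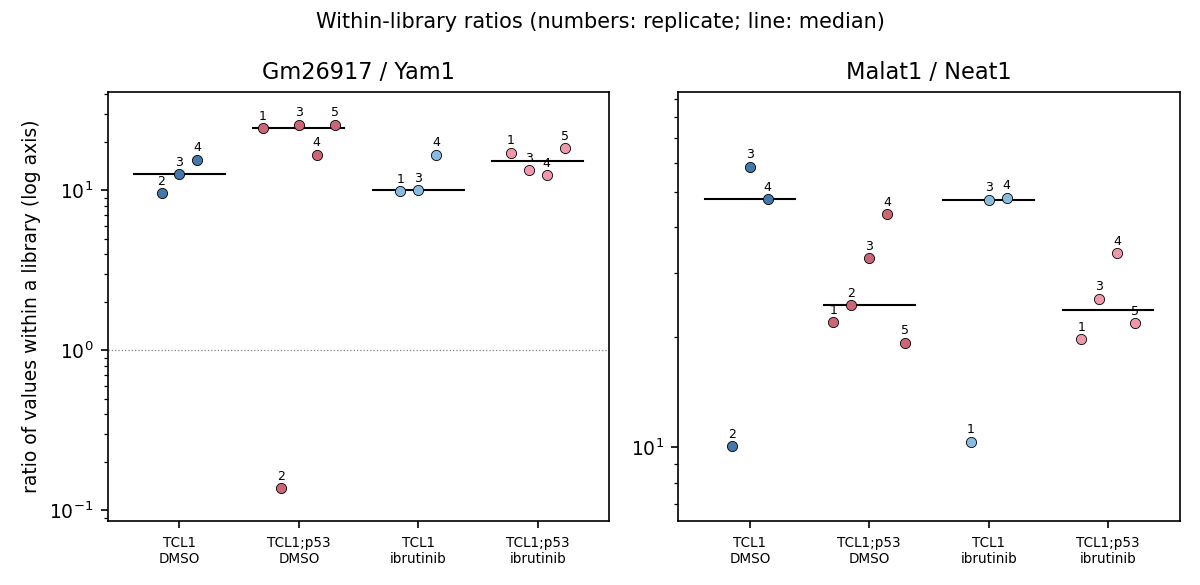
Ratio of 2 RNAs within each library (log axis) by genotype and culture, with *Gm26917* over *Yam1* on the left and *Malat1* over *Neat1* on the right, numbers marking replicates and lines medians. Eμ-TCL1;p53R172H/+ replicate 2 in DMSO lies at 0.137 on the left, and Eμ-TCL1 replicates 2 (DMSO) and 1 (ibrutinib) lie at 10.04 and 10.4 on the right.

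RNA polymerase I and its factors transcribe ribosomal DNA, and all 15 of the genes listed for it were measured. In DMSO the Eμ-TCL1;p53R172H/+ mean was above for 14 and below for 1, with a median log2 difference of 0.42 against 0.04 over all genes. None passed an adjusted p of 0.05 in limma and 2 had an unadjusted p under 0.05, where 8.17% of all genes did. *Cd3eap*, a subunit of the polymerase, had means of 5.57 ± 1.12 (SD, n = 3) and 12.9 ± 1.13 (SD, n = 5) (log2 difference 1.09, limma adjusted p = 0.313). *Rrn3*, an initiation factor, had 51.9 ± 13.5 and 73.7 ± 8.78 (limma adjusted p = 0.608). In ibrutinib 13 were higher and 2 lower (median 0.34 against -0.05 over all genes), and 3 had an unadjusted p under 0.05, against 12% of all genes. *Taf1b*, a component of the promoter selectivity factor, had 15.1 ± 2.20 and 22.8 ± 1.38 (limma adjusted p = 0.302), and *Ubtf*, the upstream binding factor, 107 ± 14.04 and 150.2 ± 10.6 (limma adjusted p = 0.319). *Polr1a*, the largest subunit, was among the 2 lower genes in ibrutinib, at 59.5 ± 4.80 and 49.65 ± 7.94.

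*Malat1* was the steadiest of the 5 in DMSO. It was 12080.6, 14094.9 and 10819.4 in Eμ-TCL1 and 11317.5, 17507.1, 14954.1, 16575.8 and 10438.6 in Eμ-TCL1;p53R172H/+, and the second group spanned the first. Its within-group SD of 0.29 on the log2 scale was exceeded by 81.3% of the 10773 genes with a mean of at least 5, where the median gene had 0.49. In ibrutinib it was 9424.2, 16651.2 and 13497.2 in Eμ-TCL1 and 8407.8, 12560.2, 15104.5 and 8227.3 in Eμ-TCL1;p53R172H/+. These groups overlapped too, and the SD of 0.43 was nearer to the median gene's 0.35. The log2 differences between genotypes were 0.18 ± 1.02 (SE; limma, adjusted p = 0.961) in DMSO and -0.26 ± 1.01 (limma, adjusted p = 0.924) in ibrutinib, with intervals from -2.16 to 2.52 and from -2.64 to 2.12. These standard errors rest on a prior spread that limma sets by the mean level, and without that trend they were 0.24 and 0.31, with limma adjusted p-values of 0.808 and 0.715.

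Of 13 nuclear speckle genes, 11 lay above and 2 below in Eμ-TCL1;p53R172H/+ in DMSO (median log2 difference 0.24 against 0.04 over all genes). In ibrutinib 9 were higher and 4 lower (median 0.17 against -0.05 over all genes). Over all genes, 8.17% in DMSO and 12% in ibrutinib had an unadjusted p under 0.05 in limma. Of the 13, none passed the adjusted threshold in limma, and 1 in each culture had an unadjusted p under 0.05. In DMSO this was *Srrm2*, a splicing scaffold, at 608 ± 140.0 and 1138 ± 330 (SD, limma adjusted p = 0.580). In ibrutinib it was *Thoc1*, of the mRNA export complex THO, at 26.2 ± 4.59 and 39.8 ± 5.33 (limma adjusted p = 0.319).

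*Neat1* was highest in the 2 libraries rich in myeloid transcripts. In DMSO it was 1203.1, 240.5 and 226.3 in Eμ-TCL1 and 514.1, 715.7, 454.8, 381.2 and 539.8 in Eμ-TCL1;p53R172H/+. The 1203.1 was in Eμ-TCL1 replicate 2, and the other two Eμ-TCL1 values were the lowest of the table. In ibrutinib it was 909.7, 350.2 and 280.3 in Eμ-TCL1 and 426.4, 492.5, 445.6 and 376.8 in Eμ-TCL1;p53R172H/+. The same order returned, with the myeloid-rich Eμ-TCL1 replicate 1 on top and the other 2 Eμ-TCL1 libraries at the bottom. Those at the bottom were replicates 3 and 4 in both cultures. Whether the 2 cultures used the same mice is not given, so this may not be an independent repeat. With all libraries the log2 difference was 0.34 ± 0.55 (SE) in DMSO and -0.04 ± 0.40 in ibrutinib (limma, adjusted p = 0.838 and 0.966).

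Without Eμ-TCL1 replicate 2 the log2 difference of *Neat1* in DMSO was 1.12 (limma, adjusted p = 0.264), and without Eμ-TCL1 replicate 1 it was 0.47 in ibrutinib (limma, adjusted p = 0.331). *Neat1* then did not overlap between the genotypes in either culture, as was the case, in this direction, for 6.05% of all genes in DMSO and 11.2% in ibrutinib. With array quality weights, which count outlying libraries less, the difference in DMSO was 1.01 (limma, adjusted p = 0.0536). With 5 of the 6 libraries of low B-cell sums left out (Eμ-TCL1;p53R172H/+ replicates 1 and 2 in DMSO and 1 in ibrutinib, and the 2 myeloid-rich ones), the differences were 0.96 and 0.47 (limma, adjusted p = 0.147 and 0.341). With the sixth, Eμ-TCL1;p53R172H/+ replicate 3 in ibrutinib, left out as well, the difference in ibrutinib was 0.39 (limma, adjusted p = 0.532). Leaving out Eμ-TCL1 replicate 3 or 4 in DMSO gave -0.03 and -0.08 instead. As a share of the column sum, *Neat1* in DMSO was higher in Eμ-TCL1;p53R172H/+ by 0.0252 percentage points without Eμ-TCL1 replicate 2 (exact permutation p = 0.0476, the smallest that 21 splits can give, not adjusted), and with it the difference was -0.00127 (exact permutation p = 0.946). In ibrutinib the shares overlapped without Eμ-TCL1 replicate 1, with a difference of 0.0141 points (exact permutation p = 0.2).

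**Figure D3:**
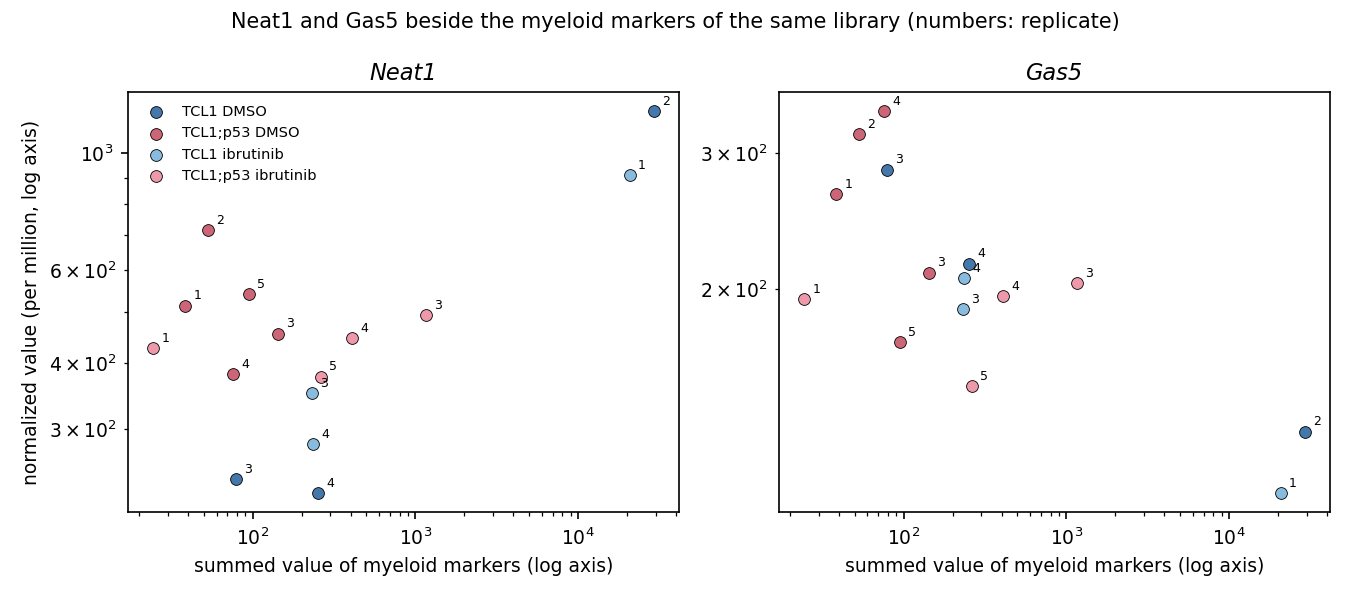
Normalized value of *Neat1* (left) and *Gas5* (right) against the summed value of 9 myeloid marker genes in each of the 15 libraries, all axes log, with numbers marking replicates. The 2 libraries with myeloid sums of 29228 and 20785 hold the highest *Neat1* values, 1203.1 and 909.7, and the lowest *Gas5* values, 130.6 and 108.6.

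The ratio of *Malat1* to *Neat1* followed the same libraries. It was 10.04, 58.6 and 47.8 in Eμ-TCL1 and 22.0, 24.5, 32.9, 43.5 and 19.3 in Eμ-TCL1;p53R172H/+ in DMSO. In ibrutinib it was 10.4, 47.5 and 48.2 in Eμ-TCL1 and 19.7, 25.5, 33.9 and 21.8 in Eμ-TCL1;p53R172H/+. In each culture 1 Eμ-TCL1 library was below and the other two above every Eμ-TCL1;p53R172H/+ library. The difference of the log2 ratio was -0.16 in DMSO and -0.22 in ibrutinib with all libraries (exact permutation p = 0.786 and 0.800). Without Eμ-TCL1 replicate 2 it was -0.96 in DMSO (exact permutation p = 0.0476), and without Eμ-TCL1 replicate 1 it was -0.95 in ibrutinib (exact permutation p = 0.0667). These are the smallest p-values possible with 21 and 15 splits, and they were not adjusted. In each culture the library left out was the one with the highest *Neat1* value.

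Paraspeckle protein genes, 15 of 15 measured, were higher in Eμ-TCL1;p53R172H/+ for 13 and lower for 2 in DMSO (median log2 difference 0.28 against 0.04 over all genes). In ibrutinib 8 were higher and 7 lower (median 0.00 against -0.05 over all genes). None passed the adjusted threshold in limma. An unadjusted p under 0.05 was found for 1 in DMSO and 0 in ibrutinib, against 8.17% and 12% of all genes. *Sfpq*, one of the core paraspeckle proteins, had 345 ± 79.3 and 346 ± 86.0 in DMSO, and 275 ± 74.7 and 235 ± 44.8 in ibrutinib.

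*Gas5* was lowest where *Neat1* was highest, in the myeloid-rich libraries. In DMSO it was 130.6, 285.8 and 215.7 in Eμ-TCL1 and 265.7, 317.9, 210, 340.3 and 170.8 in Eμ-TCL1;p53R172H/+. In ibrutinib it was 108.6, 188.4 and 206.4 in Eμ-TCL1 and 194.2, 203.5, 195.9 and 149.7 in Eμ-TCL1;p53R172H/+. The lowest value of each table came from the myeloid-rich Eμ-TCL1 library, and the groups overlapped in both. The log2 differences were 0.33 ± 0.33 (SE; limma, adjusted p = 0.729) and 0.19 ± 0.26 (limma, adjusted p = 0.756). Without the same 5 libraries they were -0.11 and -0.12 (limma, adjusted p = 0.904 and 0.792), and without all 6 the difference in ibrutinib was -0.20 (limma, adjusted p = 0.705). The part of myeloid or other cells in the *Neat1* and *Gas5* values was not tested beyond leaving these libraries out.

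Nonsense-mediated decay limits the level of *Gas5* RNA, and all 14 factors listed were measured. With the *Trp53* mutation 10 were higher and 4 lower in DMSO (median log2 difference 0.30), and in ibrutinib 9 were higher and 5 lower (median 0.07). None passed in limma, and *Smg5*, which helps to dephosphorylate Upf1, was the only one with an unadjusted p under 0.05, at 70.5 ± 11.7 and 104 ± 14.7 in DMSO (limma adjusted p = 0.558). Of 21 other small nucleolar RNA host genes listed, 9 were measured, with 7 higher and 2 lower in DMSO (median 0.36) and 6 higher and 3 lower in ibrutinib (median 0.14). None passed in limma, and *Snhg4* alone had an unadjusted p under 0.05, at 4.57 ± 2.25 and 10.5 ± 1.803 in DMSO (log2 difference 1.13, limma adjusted p = 0.503). Over all genes the median log2 difference was 0.04 in DMSO and -0.05 in ibrutinib. An unadjusted p under 0.05 in limma was reached by 8.17% and 12% of all genes.

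Set side by side, 0 of the 5 RNAs passed an adjusted p of 0.05 between genotypes in limma in DMSO or in ibrutinib, and 0 had an unadjusted p under 0.05. That second count depended on the fit: the unadjusted p was 0.0322 for *Gm26917* in DMSO without the trend in the prior spread, and for *Neat1* in DMSO it was 0.00292 with array weights and 0.00518 without Eμ-TCL1 replicate 2 (limma). Over all genes 2 of 16470 (0.0121%) passed in DMSO, the immunoglobulin variable segments *Igkv12-89* and *Ighv1-55*, named here after their values were seen, and 0 of 16428 (0.0%) in ibrutinib, where 1973 had an unadjusted p under 0.05. The difference of the 2 genotype differences was tested in 1 limma model over 15869 genes: 0 passed, 83 had an unadjusted p under 0.05 (0.523%), and each of the 5 RNAs had an adjusted p of 1. For *Yam1* the difference was -1.67, and -0.58 over the libraries whose numbers are in both tables, with or without the number as a block. The limma intervals allowed a fold of 0.742 to 2.14 for *Gas5* and 0.529 to 3.01 for *Neat1* in DMSO, and of 0.160 to 23.9 for *Gm26917* and 0.232 to 37.1 for *Yam1*, and without the trend that of *Gm26917* was 1.08 to 3.56, which leaves out no change, and that of *Yam1* 0.240 to 35.9. No test was made between the tables, which were scaled separately. The median over a group was 1532.3 and 2331.3 for *Yam1*, 14850.7 and 23132.4 for *Gm26917*, 12080.6 and 13497.2 for *Malat1*, 240.5 and 350.2 for *Neat1*, and 215.7 and 188.4 for *Gas5*, in Eμ-TCL1 in DMSO and in ibrutinib. In Eμ-TCL1;p53R172H/+ the medians were 1761 and 2659.7 for *Yam1*, 29482.2 and 45430.4 for *Gm26917*, 14954.1 and 10484 for *Malat1*, 514.1 and 436 for *Neat1*, and 265.7 and 195.05 for *Gas5*.

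**Figure D4:**
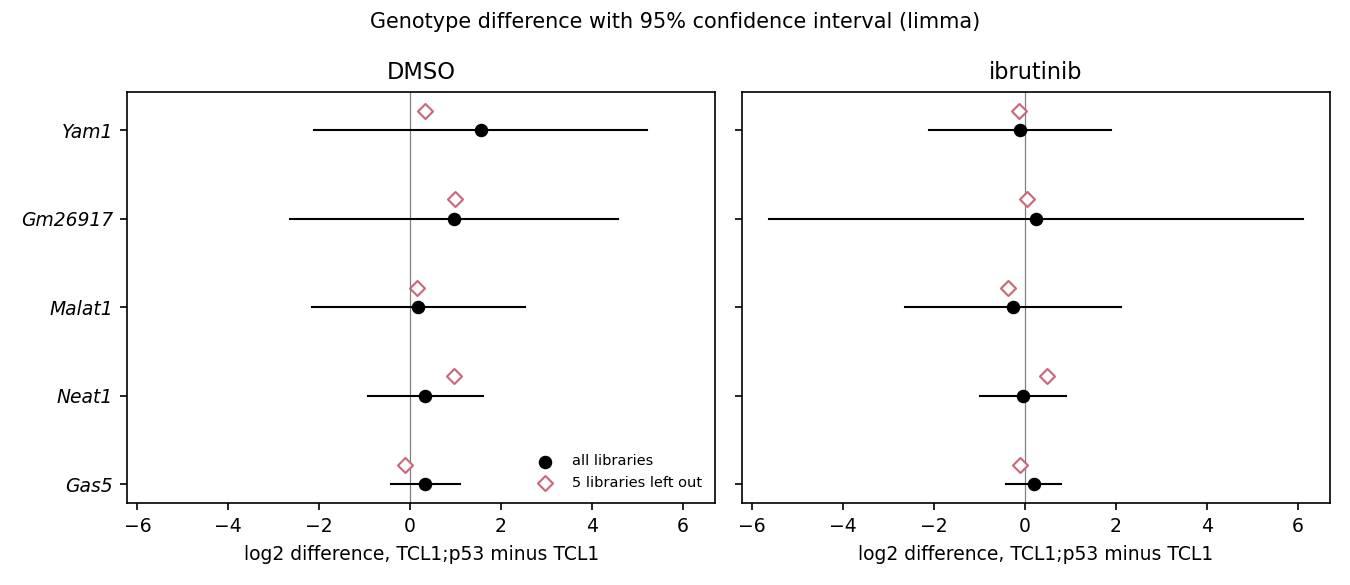
Log2 difference of each RNA between genotypes (Eμ-TCL1;p53R172H/+ minus Eμ-TCL1) in DMSO and in ibrutinib, with filled points and lines for the limma estimate and its 95% interval over all libraries and open diamonds for the estimate with 5 libraries left out (Eμ-TCL1;p53R172H/+ replicates 1 and 2 in DMSO and 1 in ibrutinib, Eμ-TCL1 replicate 2 in DMSO and 1 in ibrutinib). All 10 intervals include 0, *Yam1* in DMSO moves towards 0 and *Neat1* moves up in both cultures when those libraries are left out.

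The 5 RNAs filled 77.7% to 96.0% of all expression typed as lncRNA. Their summed share was 3.27% ± 0.744 (SD, n = 3) in Eμ-TCL1 and 8.05% ± 5.37 (n = 5) in Eμ-TCL1;p53R172H/+ in DMSO, and 6.32% ± 4.17 (n = 3) and 5.80% ± 0.718 (n = 4) in ibrutinib. The wide spreads came from 2 libraries. These were Eμ-TCL1;p53R172H/+ replicate 2 in DMSO, at 17.3% through *Yam1*, and Eμ-TCL1 replicate 3 in ibrutinib, at 11.1% through *Gm26917*. *Neat1* took at most 0.105% and *Gas5* at most 0.0392% of a column sum. The ranks of *Neat1* and *Gas5* among all genes were 56 to 618 and 316 to 1289. Per kb of exon, the medians over 15 libraries were 8792 for *Gm26917* (4412 to 34516), 1799 for *Malat1* (1178 to 2507), 1056 for *Yam1* (520 to 94630), 54.1 for *Gas5* (28.9 to 90.5) and 21.5 for *Neat1* (10.9 to 57.9). On this scale *Gm26917* and *Malat1* did not overlap, while *Malat1* and *Yam1* did, as did *Gas5* and *Neat1*. The value per kb of *Neat1* divides by the long form and is lower than it would be for the short one. That of *Gas5* divides by 3760 bases of merged exons and is lower than it would be for the mature transcript of 346 bases. The places of *Gas5* and *Neat1* on this scale therefore rest on the lengths chosen.

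**Figure D5:**
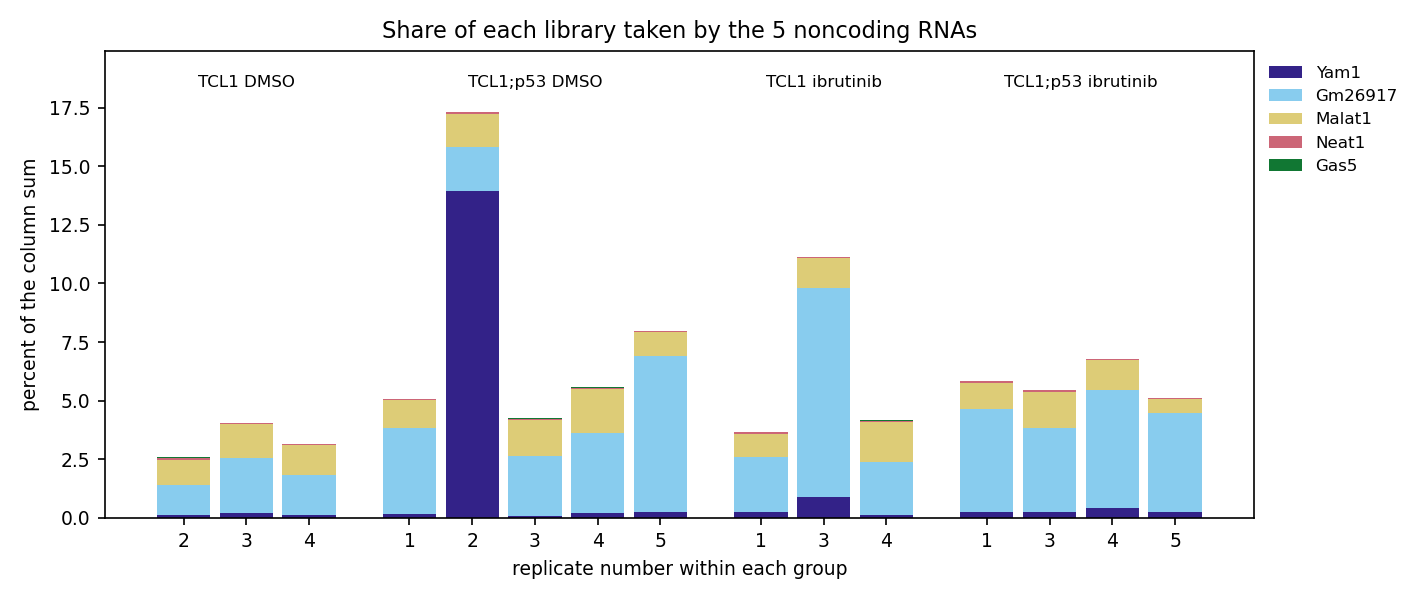
Share of the column sum (percent, axis from 0) taken by each of the 5 RNAs in each of the 15 libraries, stacked, grouped by genotype and culture. *Gm26917* takes 1.28% to 8.91% and *Malat1* 0.605% to 1.91%, and *Yam1* takes 13.9% of the column sum in Eμ-TCL1;p53R172H/+ replicate 2 in DMSO.

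The genes whose pattern over libraries was most like that of each RNA were ranked by Pearson's r of log2(value + 1), centred within each table, over 15 libraries and 10119 genes with a mean of at least 5 in both tables. The libraries share cell content and scaling, so r is a description. For *Yam1* the 3 nearest were ENSMUSG00000093098 (0.98, no symbol in the tables), *Lars2* (0.96) and the miRNA row *Gm24270* (0.95), all high in the 1 library. For *Gm26917* they were *Mapk8ip3*, a kinase scaffold, *2310061I04Rik* and *Capn15*, a calpain-family protease, at 0.85 each. For *Malat1* they were *Erlec1*, a lectin of the endoplasmic reticulum (0.91), *Taf15*, an RNA-binding protein (0.89), and *Kmt2e*, a chromatin protein (0.87).

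For *Neat1* the nearest were *Isca1*, of iron-sulfur cluster assembly (0.93), *Ranbp9*, a scaffold protein (0.93), and *Numb*, an inhibitor of Notch (0.93). For *Gas5* they were *Taf9b*, a transcription factor subunit (0.94), *Fam204a* (0.92) and *Tspyl2*, of the nucleosome assembly family (0.92). Without the 2 myeloid-rich libraries, 0 of the 3 genes stayed among the nearest for *Gm26917*, *Neat1* and *Gas5* each, and 2 of 3 did for *Yam1* and *Malat1*. Without Eμ-TCL1;p53R172H/+ replicate 2 in DMSO, 1 of 3 stayed for *Gm26917*, *Malat1* and *Neat1*, 2 for *Yam1* and 3 for *Gas5*. Among the 5 RNAs themselves, *Yam1* and *Gm26917* had r = 0.31, and 0.74 without the library in which *Yam1* was extreme. *Neat1* and *Gas5* had r = -0.56, and 0.03 without the 2 myeloid-rich libraries. *Malat1* and *Neat1*, neighbours on chromosome 19, had r = -0.12.

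Genes within 50 kb of the 5 RNAs were of much lower level. Around *Malat1* and *Neat1*, *Frmd8* had a median of 49.6 in DMSO and was highest, at 169.6, in Eμ-TCL1;p53R172H/+ replicate 1. *Zbtb37* overlaps the start of the annotated *Gas5* span on the other strand, up to chr1:161034849, which lies before the start of the mature transcript shown above. It had a median of 49.0 in DMSO. None of these neighbours passed between genotypes in limma. Unadjusted p-values under 0.05 in limma were found in ibrutinib for *Frmd8* (log2 difference 0.74, unadjusted p = 0.0482, adjusted p = 0.412) and *Serpinc1* (-0.90, unadjusted p = 0.0308, adjusted p = 0.368). Of all genes in ibrutinib, 12% had such a p-value. *Serpinc1* lay near the floor there, at 0.5 to 4.6 with a median of 1.3.

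Of 33 other long or abundant noncoding RNAs listed, 21 were measured, 8 higher and 13 lower in Eμ-TCL1;p53R172H/+ in DMSO and 11 higher and 10 lower in ibrutinib. None passed in limma. *Mir17hg*, the host of an oncogenic microRNA cluster, had 20.1 ± 1.97 (SD, n = 3) and 37.9 ± 8.49 (SD, n = 5) in DMSO (log2 difference 0.86, limma adjusted p = 0.401). In ibrutinib it had 13.1 ± 0.551 and 29.9 ± 5.95 (log2 difference 1.12, limma adjusted p = 0.165). Its groups did not overlap in either culture. Of all genes, 3.52% in DMSO and 6.68% in ibrutinib were separated with the higher values in Eμ-TCL1;p53R172H/+. *Trp53cor1*, a p53-induced lncRNA, had 3.10 ± 0.700 and 1.20 ± 1.19 in ibrutinib (limma adjusted p = 0.408). *Firre*, an X-linked RNA, had 2.10 ± 1.67 and 0.240 ± 0.182 in DMSO (limma adjusted p = 0.544).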

How the data were processed

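RNA-seq of total RNA was analysed in 15 libraries. Per the methods of the authors and the submitters' processing notes, reads were aligned with TopHat2 2.0.12 to GRCm38 (mm10), handled with SAMtools 0.1.19 and counted per gene with HTSeq on GENCODE M2, genes under 0.5 CPM were removed, and edgeR normalization was applied. The authors deposited the result as 2 tables of normalized signal, in CPM of an effective library size set separately for each table and rounded to 0.1, so columns sum to 756625 to 1359650. Strandedness and the treatment of multiply mapped reads are not given in the sources used here. No counts were used, so depth is unknown.

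Values were tested as log2(value + 1) within a table with limma 3.58.1 (R 4.3.3; eBayes with a trended prior), Benjamini-Hochberg adjusted over all genes at 0.05, and the genotype by treatment interaction over genes in both tables. For single measures, 24 in all, an exact permutation test over libraries (two-sided) was used. Positions are from GENCODE M21, and sequences from its transcripts and RefSeq tables on GRCm38. Scripts used Python 3.11.15 and were tested on simulated data. The members and gene lists were chosen with earlier results of these data known. Genes named were the 5 members, genes within 50 kb of them, in each list and table up to 2 genes per direction with the lowest unadjusted p, the 3 most correlated genes per member, and check genes; other names are said to be chosen after their values were seen. *Sfpq* was named after its values were seen. Some genes that this rule names are not reported here. Alternatives were pseudocounts of 0.1 and 5, a minimum mean of 5, other scalings, array weights, a replicate block and libraries left out.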

Additional observations from a re-analysis of the deposited data

Results flagged for a closer look

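Dixon's test was run on the Eμ-TCL1;p53R172H/+ groups only, and no Eμ-TCL1 group was tested in this way. Of 24 measures compared in those groups, 4 had a library farther from the rest than the test allows at the 95% level, all in DMSO. Chance gives about 1 such case in 20 groups, and 3 of the 4 share the same *Yam1* value. Replicate 2 held *Yam1* at 173268, which was 13.9% of its column sum, and a log2 ratio of *Yam1* to *Gm26917* of 2.87. Replicate 5 held *Gm26917* at 67961.3, while as a share of the column sum it did not stand apart.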

How the results depend on the processing

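None of the 5 RNAs passed the adjusted threshold of 0.05 in limma under any alternative, and the lowest adjusted p was 0.0536. Depth is unknown. The width of the intervals of *Gm26917* and *Malat1* rests on the trend in the prior spread: without it the SE in DMSO was 0.38 against 1.58 and 0.24 against 1.02. The causes of the changes below were not tested.

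The number of genes past the threshold in DMSO, 2 as reported, was 6 with a pseudocount of 5, 803 with array weights, 1 without Eμ-TCL1;p53R172H/+ replicates 1 and 2 and 61 without Eμ-TCL1 replicate 2. In ibrutinib, 0 as reported, it was 2 with values divided by the column sum and 28 with array weights. Chosen after seeing the data, leaving out 5 libraries gave 12 in DMSO and a prior without a trend gave 14. Leaving out each library in turn gave 0 to 61 in DMSO and 0 to 24 in ibrutinib.

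Log2 differences of *Gas5* turned to -0.035 (DMSO) and -0.019 (ibrutinib) with array weights and to -0.11 and -0.12 without the 5 libraries. In ibrutinib *Yam1* turned to 0.0046 with quantile normalization, 0.084 with array weights and 0.071 without Eμ-TCL1;p53R172H/+ replicate 1. *Neat1* there turned to 0.062 per column sum without the 5 RNAs and mitochondrial genes, 0.19 with quantile normalization, 0.42 with array weights and 0.47 without the 5 libraries. The interaction of *Gas5* turned to 0.0071 per that column sum, 0.12 with quantile normalization and 0.16 without Eμ-TCL1 replicate 2. Without that library the share of *Neat1* in DMSO differed by 0.0252 percentage points, that of *Gas5* by -0.00120, and the log2 ratio of *Malat1* to *Neat1* by -0.96. The log2 ratio of *Yam1* to *Gm26917* in DMSO was -0.85 without Eμ-TCL1;p53R172H/+ replicates 1 and 2. Without all 6 libraries of low B-cell sums, also chosen after seeing the data, differences in ibrutinib were 0.15 for *Yam1*, 0.39 for *Neat1* and -0.20 for *Gas5*.

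With each library left out in turn, log2 differences in DMSO ran from -0.078 to 1.12 for *Neat1*, and in ibrutinib from -0.87 to 0.84 for *Yam1*, -0.27 to 1.07 for *Gm26917*, -0.38 to 0.47 for *Neat1* and -0.10 to 0.36 for *Gas5*. Interactions ran from -1.23 to 0.11 for *Gm26917*, -1.17 to 0.13 for *Neat1* and -0.43 to 0.16 for *Gas5*. Shares in DMSO ran from -0.0149 to 0.0252 points for *Neat1* and -0.00120 to 0.00778 for *Gas5*, and in ibrutinib from -0.273 to 0.103 for *Yam1*, -1.32 to 2.003 for *Gm26917*, -0.368 to 0.0034 for *Malat1*, -0.0188 to 0.0141 for *Neat1* and -0.00084 to 0.00665 for *Gas5*. The log2 ratio of *Yam1* to *Gm26917* ran from -0.89 to 1.001 in DMSO, and that of *Malat1* to *Neat1* from -0.96 to 0.31 in DMSO and -0.95 to 0.15 in ibrutinib.

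With the replicate number as a block, 0 genes passed in DMSO and *Neat1* in ibrutinib turned to 0.022. Deviations of same-numbered libraries of the 2 genotypes correlated at 0.165, 0.247 and 0.0517 in DMSO and at -0.0535, -0.161 and -0.167 in ibrutinib. Whether those libraries share more than a number was not tested. Between treatments of a genotype the deviations of same-numbered libraries correlated at 0.806 and 0.837 (Eμ-TCL1) and at 0.776, 0.715 and 0.731 (Eμ-TCL1;p53R172H/+ replicates 1, 4 and 5). For replicate 3, whose libraries differ in sex, the value was -0.104. Libraries with unlike numbers were not compared in this way, so these values alone do not show that a shared number marks 1 mouse. With genotype and number as a block the interactions were -0.58 for *Yam1*, -1.06 for *Gm26917*, -0.57 for *Malat1*, -0.54 for *Neat1* and -0.039 for *Gas5*. Without Eμ-TCL1;p53R172H/+ replicate 3, chosen after seeing the data, they were -0.70, -1.06, -0.58, -0.61 and -0.15, and 0 genes passed in either.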
